A study of Mus musculus with 4 samples.

Results

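The genes described here encode proteins and a lipid-making enzyme of central nervous system myelin, namely Mbp, Mog, Mag, Mobp, Cnp, Mal, Cldn11, Ugt8a and Omg. They were taken by gene symbol from the annotation of the array, with every non-control probe that carried 1 of the 9 symbols. This gave 13 probes of 55681, for 9 of the 24185 gene symbols on the array: 3 each for Mbp and Mobp and 1 for each of the other genes. In RNA immunoprecipitation (RIP) an antibody on beads takes a protein out of a lysate together with the RNA that it holds, and a non-specific IgG shows how much RNA comes down without it. The lysate was of cortex and hippocampus from male C57BL/6 mice, 8 weeks old, and was incubated with beads that carried either CPEB2 IgG or control IgG, and the recovered RNA was hybridised to 4 single-colour arrays, 2 for each antibody. CPEB2 is an RNA-binding protein that recognises the cytoplasmic polyadenylation element (CPE), and the study asked which mRNAs came down with it. The methods describe 2 experiments, with a lysate split for both antibodies, which gives each CPEB2 IgG array a control IgG array of its own. The mice carried no allele or agent according to the labels, and how many mice went into a lysate is not given in the sources used here.

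Myelin is the stacked membrane that oligodendrocytes wrap around axons. Basic proteins pull the cytoplasmic faces of the membrane together, adhesion proteins and glycoproteins sit at its inner and outer surfaces, tight junctions seal its layers, and galactolipids make up much of its bulk. Some myelin mRNAs, Mbp and Mobp among them, travel as granules into the processes of the oligodendrocyte and are translated beside the forming sheath.

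All 4 arrays lay on a single slide, with control IgG at positions 1 and 2 and CPEB2 IgG at positions 3 and 4, so position and antibody cannot be told apart. The share of spots well above background ran from 68.4% to 74.1% over the arrays, and 0 spots were saturated. The same mass of RNA was labelled from every sample according to the labels, so a signal is a share of the RNA recovered and not its yield. Both antibodies were given the same lysate of whole tissue, so the level of a gene cannot be traced to a cell type, and in it fewer cells of a type and less RNA per cell cannot be told apart. The samples grouped as CPEB2 IgG carry that name in their titles, the treatment protocol and the paper, but a description field calls the antibody CPEB3 IgG. The log2 fold changes of the 2 experiments, CPEB2 IgG against control IgG, correlated at 0.75 (Pearson) across the 41138 probes that were tested. That correlation is across probes of shared arrays and not across samples.

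The probes have 60 bases each and every one of the 13 was 1 spot on an array. A stretch of 30 bases is shown for the 3 genes that came down more with CPEB2 IgG and for the gene that came down least, with 2 more probes that hold a polyadenylation signal, since a CPE acts together with that signal. Letters are those of the array design, read 5′ to 3′ on the strand named, with mm9 coordinates of the whole probe. Capitals mark a CPE (TTTTAT or TTTTAAT) or a polyadenylation signal (AATAAA), and a line with no capitals holds neither.
Mal, chr2:127458976-127459035, minus strand, bases 31 to 60: tcaatgtttcagatTTTTAATcattaaaag
Ugt8a, chr3:125568995-125569054, minus strand, bases 1 to 30: atggagacaagtcacaactttcataaattc
Cldn11, chr3:31062922-31062981, plus strand, bases 1 to 30: atatgcAATAAAtaatagtacgaagattat
Cnp, chr11:100442617-100442676, plus strand, bases 1 to 30: tttggtcattcctaagttcctatctccttc
Mag, chr7:31684202-31684261, minus strand, bases 31 to 60: aaagggacatgaAATAAAtgtcctaatgac
Mobp probe 3, chr9:120085150-120085209, plus strand, bases 30 to 59: taacaagaactcAATAAAtacttgctgact

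Over the whole 60 bases and on the strand of the probe, a CPE stood in 1 of the 13 myelin probes, that of Mal, and in 4.54% of all 55681 probes. On the reverse strand the same motif was read in 3 myelin probes, of Mal, Mobp and Omg, and in 6.5% of all probes. AATAAA stood in 3 myelin probes, of Cldn11, Mag and Mobp, and in 10.1% of all probes, and on the reverse strand in 0 and 3.74%. The motifs can overlap, and a 60-base probe covers only a small piece of an mRNA, so a probe without a CPE says nothing of the rest of its transcript.

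In the 2 experiments the myelin genes split. Mal, Ugt8a and Cldn11 were higher with CPEB2 IgG, by 6.03, 2.51 and 2.27-fold. Cnp, a Mbp probe and 2 Mobp probes were lower, Cnp by 3.88-fold and the Mbp probe by 3.25-fold. The 6 other probes did not pass the test. The test was limma over all 41138 probes that were well above background on at least 2 of the 4 arrays, on log2 signal minus the array's own 75th percentile, with the experiment as a block and a Benjamini-Hochberg adjusted p under 0.05 as threshold. All 13 myelin probes were well above background on all 4 arrays. Of all probes tested, 5228 were higher, which is 12.7%, and 6095 were lower, which is 14.8%. After median centring of the arrays the split over all probes turned to 7500 higher and 5594 lower, while the myelin probes counted 3 higher and 3 lower. The 3 higher and 4 lower of 13 stand against that background, in which about 1 probe in 4 was called in some direction. The background was larger among the 35366 probes detected on all 4 arrays, as the myelin probes are. There 6346 were higher and 7515 lower, and of the myelin probes 3 and 7. When the scaled signals were compared without a fit, both CPEB2 IgG arrays lay above both control IgG arrays for 4 myelin probes (26.4% of all probes tested) and below them for 7 (39.2%), and the 2 antibodies overlapped for the other 2. The fit leaves 1 residual degree of freedom, and an exact permutation test of 1 probe on 2 against 2 arrays cannot go below p = 0.333.

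**Figure D1:**
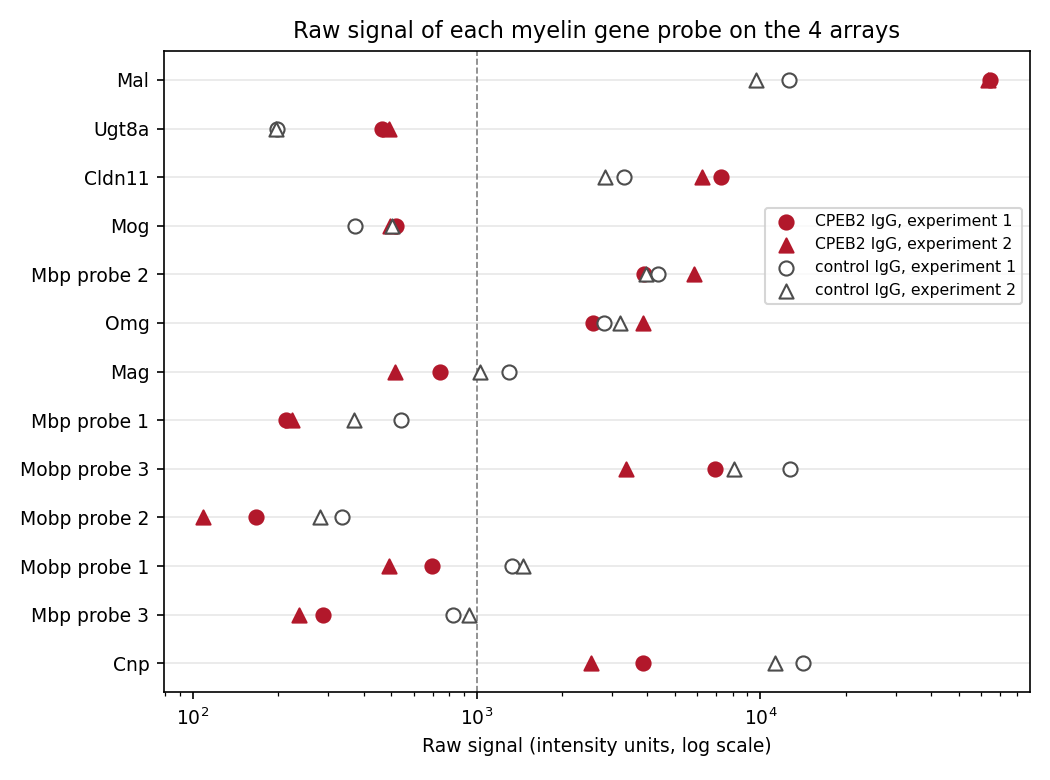
Raw signal of the 13 myelin probes on a log axis, in intensity units before any scaling, with filled red symbols for CPEB2 IgG, open symbols for control IgG, circles for experiment 1, triangles for experiment 2 and a dashed line at 1000. Probes run from the highest log2 fold change at the top (Mal, 64629 and 63638 against 12632 and 9643) to the lowest at the bottom (Cnp, 3869 and 2538 against 14151 and 11273), and levels are not comparable between probes.

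Mal encodes a small proteolipid that helps to sort membrane and protein cargo to myelin. Its probe (NM_010762) gave a raw signal of 64629 and 63638 on the CPEB2 IgG arrays and of 12632 and 9643 on the control IgG arrays, in the order of the experiments. Both CPEB2 IgG signals lay far above both controls. The log2 fold change was 2.44 in experiment 1 and 2.75 in experiment 2, with a mean of 2.59 ± 0.22 (SD, n = 2 experiments) and an SE of 0.29 (limma, adjusted p = 0.00688). Of all probes tested, 98.2% had a lower log2 fold change. Mal remained past the threshold when any 1 array was left out, with limma adjusted p from 0.0156 to 0.0436.

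Ugt8a encodes the enzyme that joins galactose to ceramide and so makes galactosylceramide, the leading galactolipid of myelin. Its probe (NM_011674) gave 463 and 493 with CPEB2 IgG, whereas control IgG gave 198 and 196. The 2 antibodies were clearly apart, and the arrays of the same antibody nearly coincided. In the experiments this was a log2 fold change of 1.31 and 1.35, 1.33 ± 0.03 (SD, n = 2) with an SE of 0.28 (limma, adjusted p = 0.0228). It missed the threshold without CPEB2 IgG replicate 2 (limma, adjusted p = 0.0527), without control IgG replicate 1 (0.0837) and without control IgG replicate 2 (0.0733).

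Cldn11 encodes the claudin that forms the tight junctions between the layers of myelin. Its probe (NM_008770) read 7246 and 6222 with CPEB2 IgG against 3320 and 2839 with control IgG, so each CPEB2 IgG array stood above each control array. Experiment 1 gave a log2 fold change of 1.21 and experiment 2 of 1.16, 1.18 ± 0.04 (SD, n = 2) with an SE of 0.28 (limma, adjusted p = 0.0313). The call was lost when any 1 of the 4 arrays was left out, with limma adjusted p from 0.0529 without CPEB2 IgG replicate 1 to 0.125 without control IgG replicate 2, while the log2 fold change stayed between 1.07 and 1.29.

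Cnp encodes the cyclic nucleotide phosphodiesterase of oligodendrocytes, which keeps cytoplasmic channels open in the sheath, and it showed the largest decrease of the 13 probes. Its probe (NM_009923) gave 3869 and 2538 with CPEB2 IgG, whereas control IgG gave 14151 and 11273. Each control array was above each CPEB2 IgG array. The log2 fold change was −1.79 and −2.13, −1.96 ± 0.24 (SD, n = 2) with an SE of 0.29 (limma, adjusted p = 0.00995), and 4.04% of all probes tested lay lower. The call held without any 1 array, with limma adjusted p from 0.0281 to 0.0482.

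**Figure D2:**
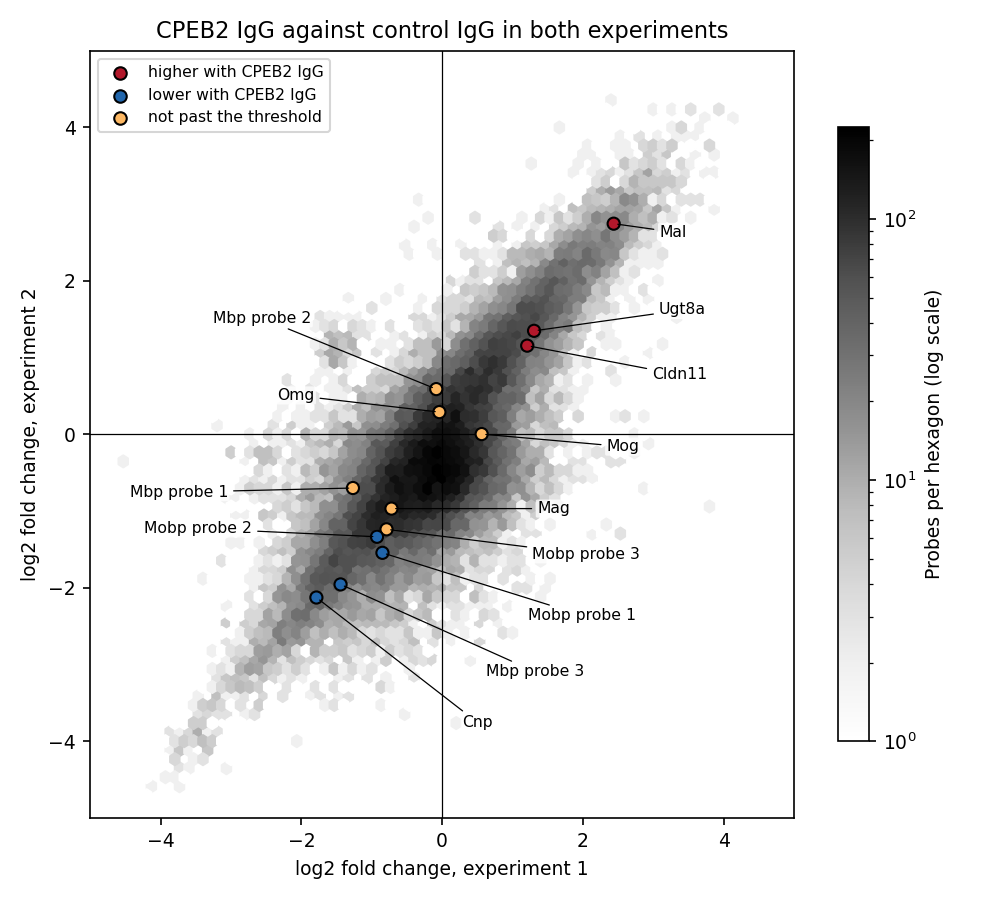
log2 fold change of CPEB2 IgG against control IgG in experiment 1 (horizontal) and experiment 2 (vertical) for the 41138 probes tested, as grey hexagons shaded by their number on a log scale, with the 13 myelin probes as points coloured by the limma call. Mal lies at 2.44 and 2.75, Cnp at −1.79 and −2.13, and only the second probe of Mbp and Omg change sign between the experiments.

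Mbp encodes the basic proteins that bring the cytoplasmic faces of the myelin membrane together, and its 3 probes did not move as 1. They are numbered along the gene on the plus strand of chromosome 18. Probe 1 starts at position 82691469 (mm9) and is listed for NM_010777 and NM_001025245. Probe 2 starts 36.46 kb further on and is listed for NM_001025245 alone. Probe 3 starts 50.797 kb beyond probe 1 and is listed for NM_010777 and 3 other Mbp transcripts. Its coordinates span 2305 bases of the genome, whereas those of probes 1 and 2 span 60 each, so it does not read 1 unbroken genomic stretch. The annotation lists at most 4 transcripts for any probe, so a transcript it does not name may still be matched.

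Mbp probe 2, the brightest of the 3, gave 3878 and 5839 with CPEB2 IgG against 4353 and 3945 with control IgG. The antibodies overlapped, since experiment 1 was slightly below its control and experiment 2 above it. Their log2 fold changes were −0.08 and 0.59, 0.25 ± 0.48 (SD, n = 2) with an SE of 0.31 (limma, adjusted p = 0.592). Mbp probe 3 gave 287 and 237 against 828 and 937, with both CPEB2 IgG arrays well below both controls. Its log2 fold change was −1.44 and −1.96, −1.70 ± 0.36 (SD, n = 2) with an SE of 0.30 (limma, adjusted p = 0.0145), and the call was lost without control IgG replicate 2 (adjusted p = 0.0520). Mbp probe 1 gave 212 and 224 against 542 and 370, also below the controls without overlap. Its log2 fold change of −1.27 and −0.70, −0.98 ± 0.40 (SD, n = 2), did not pass the test (limma, adjusted p = 0.0647).

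The difference between probes of a gene was tested directly, as the log2 signal of the brightest probe minus that of each other probe on the same array, over 7013 such pairs on the array. Of those pairs 25.6% differed in their response to the antibody. The brightest probe had the higher log2 fold change in 1302 of them and the lower in 492. Over all pairs the median difference was 0.25, so pairs leaned toward the brightest probe, the direction of both Mbp pairs. Of the 4 pairs of myelin genes, the 2 of Mbp did and the 2 of Mobp did not pass. Mbp probe 2 exceeded probe 3 by 1.95 on the log2 fold change scale (1.36 and 2.55 in the experiments, SE 0.39, limma adjusted p = 0.0379). It exceeded probe 1 by 1.24 (1.18 and 1.29, SE 0.25, limma adjusted p = 0.0396). These differences do not depend on the scaling of the arrays by a constant. The 3 probes differ in their content of G and C (GC), which is 38.3% in probe 2, 51.7% in probe 1 and 48.3% in probe 3. After centring within bins of GC content their log2 fold changes were 0.37, −0.48 and −1.21, in the same order. The differences between probes were not tested in that setting. With 1 array left out, 1 of the 2 pairs passed without CPEB2 IgG replicate 1 and 0 passed without each of the other 3 arrays, where the difference of probes 2 and 3 stayed between 1.52 and 2.11.

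**Figure D3:**
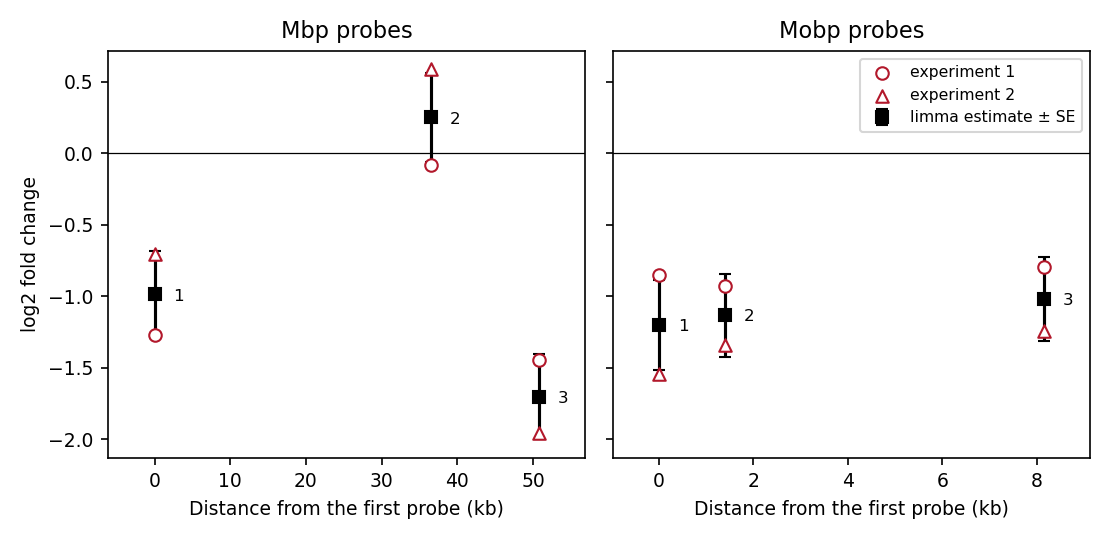
log2 fold change of CPEB2 IgG against control IgG for the 3 probes of Mbp (left) and of Mobp (right) against the distance in kb from the first probe along the gene. Black squares with bars give the limma estimate ± SE, open circles experiment 1 and open triangles experiment 2. Mbp probe 2 stands at 0.25 between probes at −0.98 and −1.70, while the Mobp probes lie at −1.20, −1.13 and −1.01.

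Mobp encodes small basic proteins of compact myelin. Its probes 1 and 2 are listed for NM_001039365 and probe 3, which starts 8.144 kb beyond probe 1 along the plus strand of chromosome 9, for NM_008614 and NM_001039364. Probe 1 gave 697 and 491 with CPEB2 IgG against 1329 and 1455 with control IgG, and its log2 fold change was −0.85 and −1.55, −1.20 ± 0.49 (SD, n = 2; SE 0.31; limma, adjusted p = 0.0426). Probe 2 gave 167 and 109 against 336 and 280, with −0.93 and −1.34, −1.13 ± 0.29 (SD, n = 2; SE 0.29; limma, adjusted p = 0.0401). Probe 3, the brightest, gave 6927 and 3373 against 12691 and 8089, with −0.79 and −1.24, −1.01 ± 0.32 (SD, n = 2; SE 0.29), and did not pass (limma, adjusted p = 0.0548).

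All 3 Mobp probes were lower with CPEB2 IgG than with control IgG in both experiments, and no CPEB2 IgG array overlapped a control array. The calls of probes 1 and 2 held without CPEB2 IgG replicate 1 (limma, adjusted p = 0.0361 and 0.0369) and were lost without each of the other 3 arrays (adjusted p from 0.0885 to 0.187). Probe 3 differed from probe 1 by 0.18 (limma on pairs, adjusted p = 0.658) and from probe 2 by 0.12 (adjusted p = 0.779), which does not show that they respond alike.

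Mag encodes a sialic acid-binding adhesion protein of the innermost myelin layer, next to the axon. Its probe (NM_010758) gave 743 and 515 with CPEB2 IgG against 1296 and 1024 for control IgG, so both CPEB2 IgG arrays were the lower ones. The log2 fold change was −0.72 and −0.97, −0.84 ± 0.18 (SD, n = 2; SE 0.28), and it did not pass over all probes (limma, adjusted p = 0.0801). Mog encodes an adhesion glycoprotein of the outermost layer. Its probe (NM_010814, chr17:37148277-37148336, minus strand) gave 518 and 497 against 372 and 504. The raw signals overlapped, and after scaling the CPEB2 IgG arrays lay just above the controls. Its log2 fold change was 0.56 in experiment 1 and near 0 in experiment 2, 0.28 ± 0.40 (SD, n = 2; SE 0.30; limma, adjusted p = 0.533).

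Omg encodes a lipid-anchored glycoprotein that, like Mag, binds the Nogo receptor. Its probe (NM_019409, chr11:79314993-79315052, minus strand) gave 2582 and 3861 with CPEB2 IgG against 2811 and 3211 for control IgG, and the antibodies overlapped. The log2 fold change was −0.04 and 0.29, 0.12 ± 0.23 (SD, n = 2; SE 0.29; limma, adjusted p = 0.781), and it turned to −0.10 when probes were centred by their GC content. Of all probes tested, 65.6% lay lower than Omg, 71.3% lower than Mog and 70.4% lower than Mbp probe 2, because the median probe had a log2 fold change of −0.20.

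When only the brightest probe stood for each gene, limma was fitted to 19698 genes, of which 21.2% were higher and 20.4% lower with CPEB2 IgG. After median centring 5212 were higher and 3301 lower, in place of 4174 and 4020. Among the 9 myelin genes 3 were higher (Mal, Ugt8a and Cldn11), 3 were lower (Cnp, Mobp and Mag) and 3 did not pass (Mbp, Mog and Omg). The limma adjusted p was 0.0451 for Mag and 0.0326 for Mobp in this fit. Both calls were lost with no replicate block (adjusted p = 0.0614 and 0.122), after median centring (0.138 and 0.0605) and with no filter on dim probes (0.0835 and 0.0808), and Cnp was then the only lower gene of the 9. They were also lost without CPEB2 IgG replicate 2, without control IgG replicate 1 and without control IgG replicate 2, and Mag was lost after GC centring (0.204). Cldn11 was lost without control IgG replicate 2 and with no filter on dim probes in this fit. The median log2 fold change of the 9 genes was 0.25, against −0.11 for all genes, but it was −0.04 without CPEB2 IgG replicate 2, 0.03 without control IgG replicate 1 and 0.42 without CPEB2 IgG replicate 1. The thresholds that the methods of the study state ask for a fold change of more than 1.5 (taken here as the mean) with a raw signal over 1000 (taken here as reached with CPEB2 IgG in either experiment). They were applied without a test, and without the further requirement of a CPE in the 3′ untranslated region. They were passed by 2 of the 9 myelin genes, Mal and Cldn11, and by 13.9% of all 24164 genes. Ugt8a exceeded the fold but not the signal.

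**Figure D4:**
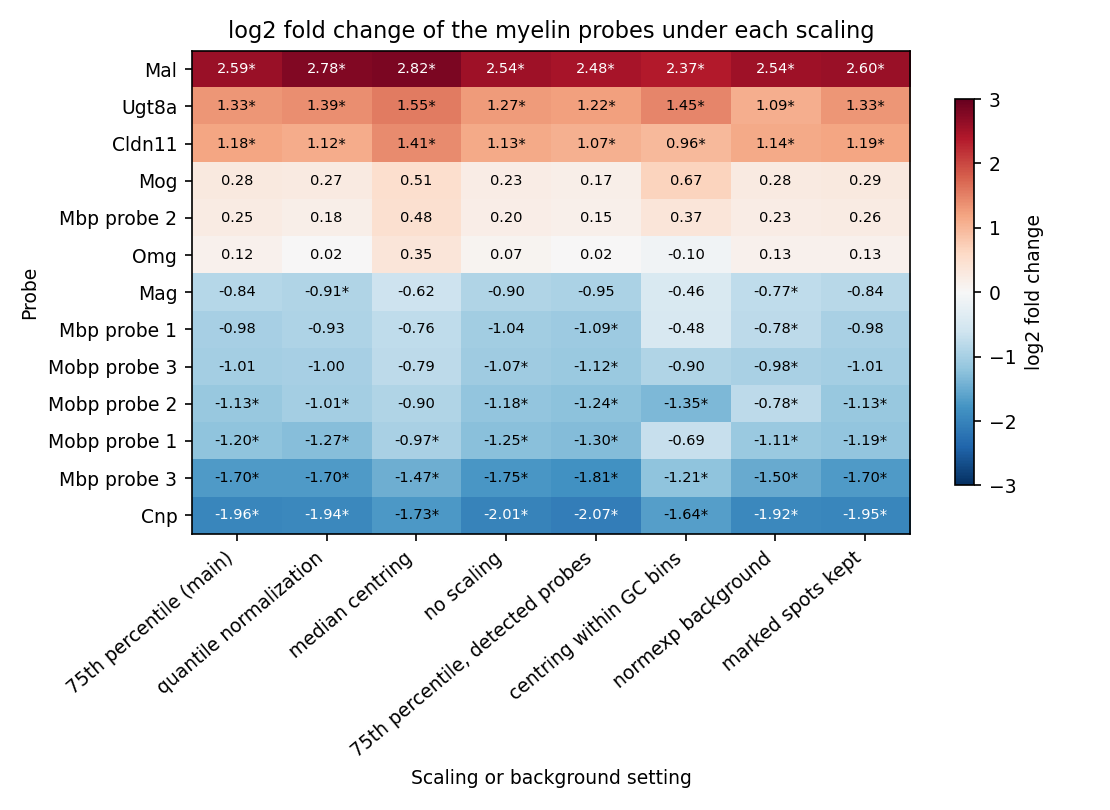
log2 fold change of the 13 myelin probes (lines) under 8 ways to scale or background-correct the arrays (columns), coloured from blue (lower with CPEB2 IgG) to red (higher), with a star where the limma adjusted p was under 0.05. Mal runs from 2.37 to 2.82 and Cnp from −2.07 to −1.64, with a star in every column, and Omg is the probe whose sign turns.

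The content of G and C in a probe moved with the result and was measured for every probe. Across all 41138 probes GC content and log2 fold change had a Spearman correlation of −0.33, and across the 13 myelin probes of −0.52, given as a description of probes that share their arrays. Among all probes under 40% GC, 25.1% were higher and 8.24% lower with CPEB2 IgG, and among probes at 40% or over, 7.0% were higher and 17.9% lower. Of the 7 myelin probes under 40% GC, 3 were higher and 1 was lower, with a median log2 fold change of 0.25. Of the 6 at 40% or over, 0 were higher and 3 were lower, with a median of −1.09. Mal and Cldn11 have 35% GC, Ugt8a 36.7%, Cnp 45% and Mbp probe 3 48.3%. After centring within 20 bins of GC content, Mal (2.37), Ugt8a (1.45) and Cldn11 (0.96) were past the threshold as higher and Cnp (−1.64), Mbp probe 3 (−1.21) and Mobp probe 2 (−1.35) as lower, while Mobp probe 1 (−0.69, limma adjusted p = 0.115) was not.

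Other genes of myelin and of the oligodendrocyte lineage were counted by list, with the brightest probe of each gene and the fit over 19698 genes, in which 21.2% were higher and 20.4% lower. Of 31 other genes of myelin and mature oligodendrocytes, 8 were higher, 10 were lower and 13 did not pass, with a median log2 fold change of 0.17. That median turned to −0.27 without CPEB2 IgG replicate 1, was 0.10 without CPEB2 IgG replicate 2, 0.29 without control IgG replicate 1 and 0.04 without control IgG replicate 2, and ran from 0.06 to 0.39 over the scalings. Jam3, a junctional adhesion molecule, gave 5797 and 6749 with CPEB2 IgG against 423 and 512 with control IgG (log2 fold change 3.80, SE 0.23, limma adjusted p = 0.00543). The gap junction gene Gjb1 (2.08) and the proteolipid gene Pllp (1.95), a relative of Mal, were also higher. The septin gene Sept4 gave 1861 and 1748 against 12555 and 12685 (−2.75, SE 0.23, limma adjusted p = 0.00543), and the deacetylase gene Sirt2 (−2.44) and Plekhb1 (−2.05) were lower too.

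Of 18 genes of myelin lipid synthesis, 9 were higher and 3 lower, with a median of 0.73. Srebf2, the sterol-responsive transcription factor, was at 3.11. Gal3st1, which adds sulfate to the galactosylceramide made by Ugt8a, gave 2028 and 1626 against 451 and 376 (2.19, SE 0.23, limma adjusted p = 0.00562). Sptlc1, a subunit of the first enzyme of sphingolipid synthesis, was at 2.00. The lower genes were Fdft1 (−2.43) and Lss (−1.27) of the sterol pathway and Elovl1 (−1.13), which lengthens fatty acids. Without control IgG replicate 2 the count fell to 5 higher and 2 lower, and without control IgG replicate 1 it was 7 and 1.

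Of 15 transcription factors of the lineage, 7 were higher and 2 lower, with a median of 0.76, which was 0.41 without CPEB2 IgG replicate 2. Sox8 (2.24), Hes5 (2.15) and Zeb2 (1.96) were higher, and Sox10 (−1.92) and Myrf (−1.44), regulators of myelin gene transcription, were lower. The lower count was 1 without CPEB2 IgG replicate 2, without control IgG replicate 1, with no replicate block, after GC centring and with no filter on dim probes, and 4 with an intensity trend. Myrf was well above background on 1 of the 2 CPEB2 IgG arrays. Of 11 genes of oligodendrocyte precursors, 7 were higher and 1 lower, with a median of 1.22. With no filter on dim probes the count fell to 4 higher and 0 lower. The median was 0.95 without CPEB2 IgG replicate 1 and 1.48 without CPEB2 IgG replicate 2. It was 1.39 without control IgG replicate 1 and 1.04 without control IgG replicate 2. Vcan, a matrix proteoglycan, was at 3.25, Lhfpl3 at 2.64 and Pdgfra, the growth factor receptor that marks the precursors, at 2.52. The lower gene, Enpp6 (−1.30), was well above background on 1 array of each antibody and, of the 4 fits that left out an array, was called only without control IgG replicate 2. It was also not called with no block, quantile normalization, normexp, an intensity trend or no filter on dim probes, and was not among the probes detected on all 4 arrays.

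Of 9 genes that carry or translate myelin mRNAs, 6 were higher and 1 lower, with a median of 1.56. Ckap5, a microtubule protein of Mbp mRNA granules, was at 2.05, the kinase gene Fyn at 1.86 and Fmr1 at 1.70. Hnrnpk (−0.97) was lower. That call was lost without either control IgG array, after median centring, after GC centring and with no filter on dim probes. Of 11 receptors and partners of Mag and Omg, 5 were higher and 1 lower, with a median of 0.63. Rtn4r, which encodes the Nogo receptor itself, gave 8882 and 19181 with CPEB2 IgG against 910 and 987 with control IgG (3.84, SE 0.32, limma adjusted p = 0.00543). Its co-receptor genes Lingo1 (2.85) and Tnfrsf19 (2.50) were higher. The ligand gene Rtn4 (−1.09) was lower, except without either control IgG array and with no filter on dim probes. Mag and Omg, the ligands of that receptor among the myelin genes, were at −0.84 and 0.12. Of 4 genes of peripheral myelin, 3 were tested. Pmp22 was higher (1.19), which was lost without either control IgG array and with no filter on dim probes. Prx was lower and well above background on no CPEB2 IgG array, and 1 gene did not pass. Of the fits that left out an array, Prx was called only without CPEB2 IgG replicate 2, and it was not called with no block, with normexp, with an intensity trend or with no filter on dim probes.

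**Figure D5:**
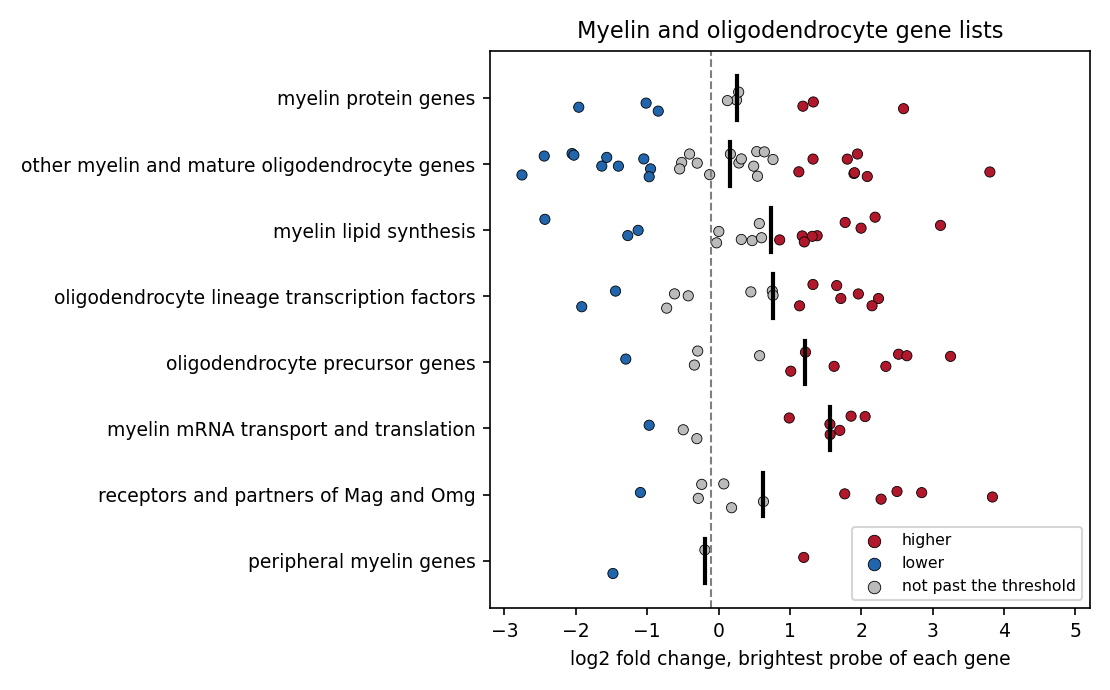
log2 fold change of CPEB2 IgG against control IgG for the brightest probe of each gene in 8 lists, 1 point a gene, in red where higher, blue where lower and grey where the limma threshold was not passed. Black bars mark the median of each list, which is highest for myelin mRNA transport and translation (1.56), and the dashed line the median of all genes (−0.11). Points are spread vertically at random within a list.

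Markers of other brain cells moved with the antibody too. Of 10 astrocyte markers 5 were higher and 4 lower, and the sum of their scaled signals was 192 and 168 with CPEB2 IgG against 601 and 502 with control IgG. Aldoc alone decided that direction, and without it the sums were 120 and 114 against 92.3 and 69.5. Slc1a3 was at 3.44 and Aldh1l1 at −3.77. Of 10 microglia markers 2 were higher and 5 lower (sums of 49.0 and 45.1 against 42.2 and 66.2), of 12 neuron markers 1 was higher and 2 were lower (401 and 421 against 406 and 407), and of 9 endothelial markers tested 1 was higher and 1 lower (13.3 and 10.4 against 18.03 and 15.3). Each tested marker was well above background on at least 1 array of each antibody. Over the 4 fits that each left out an array, 3 to 4 astrocyte markers were higher and 2 to 3 lower, 2 to 3 microglia markers higher and 2 to 4 lower, 1 to 3 neuron markers higher and 2 lower, and 1 endothelial marker higher and 0 to 1 lower. The same sum over the 9 myelin genes was 217 and 208 against 117 and 95.9, and without Mal it was the other way round, 62.7 and 55.8 against 88.4 and 73.2. Such sums follow the probes that add most to them. The part that the makeup of the recovered RNA by cell type plays in the myelin values was not tested.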

How the data were processed

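RNA from 2 RIP experiments on cortical and hippocampal lysate was hybridised to 4 Agilent SurePrint G3 Mouse arrays. The authors deposited the output of Agilent Feature Extraction 10.5.1.1 for each array, whose values are spot intensities after the background correction of the software, with no scaling between arrays, and the annotation is on mm9. The paper names no normalization for these arrays. Groups were taken from the sample titles.

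Control spots were removed, as were spots with a mark for an uneven or outlying signal, and 66 of 55681 probes without a value on some array were dropped. The processed signal was put on the log2 scale and scaled to the 75th percentile of the 55615 probes kept. R 4.3.3 with limma 3.58.1 fitted the antibody and, as a block, the experiment, for the 41138 probes well above background on at least 2 arrays, for the brightest probe of each gene and for the differences between probes of a gene, with Benjamini-Hochberg adjustment over each whole fit. The labels do not say that the 2 experiments used separate animals, so the p-values measure the spread between these arrays. Pairing comes from the methods, in which a lysate was divided between the antibodies. Arrays of the same number deviated together (correlation 0.206 over 41138 probes that share these arrays). The opposite pairing would only turn the sign of that value, so it does not establish the pairing. Python 3.11.15 with numpy 2.4.6, pandas 2.3.3 and matplotlib 3.10.9 was used for the rest.

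The fit was tested on simulated data for all 41138 probes. With 20000 probes changed, the fit found 9718 of 10000 with a 4-fold change and 4902 of 10000 with a 2-fold change, and 2.6% of its calls were false. With 200 changed, 0 of 100 and 0 of 100 were called, so calls depend on how many probes change. The simulated noise followed the variances that limma fitted and was independent between probes and arrays. It held no GC trend and no effect of slide position, so 2.6% is not an error rate measured on these arrays. The number of arrays limits the precision. The scanner software gave a spot error of 10% to 10.6% for the myelin spots.

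The myelin genes and the other lists were chosen with earlier results of these data known. Every probe of the 9 genes was described, and from each other list the text names at most 3 genes that passed the threshold in a direction, those that moved most. The alternatives were quantile normalization, median centring, no scaling, another set of probes behind the percentile, centring within GC bins, normexp with an offset of 50, marked spots kept, an intensity trend, no block, a stricter and no filter on dim probes, other thresholds, the mean of the probes of a gene, and each array or experiment left out. Applying them to the other lists, and summing lists without the gene that adds most, were chosen after seeing the data. With 1 array left out no block could be fitted, and a lone array was assumed to vary like the other group. Probe coordinates and sequences are those of the array design. Promoter and miRNA sequences were not used here.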

Additional observations from a re-analysis of the deposited data

How the results depend on the processing

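With no replicate block, the paired setting taken away, 3 myelin probes were higher and 4 lower, as with it, and 2 probe pairs differed. In the fit of the brightest probes it left 3 genes higher and 1 lower in place of 3 and 3. Higher counts were 3 under every scaling, and fell to 0 with no filter on dim probes, a setting in which limma called 0 of 55615 probes (16093 at an unadjusted p under 0.05) and adjusted p values of the 7 called probes rose to between 0.0961 and 0.146. Lower counts were 0 with no filter and 7 each with normexp, with an intensity trend and among probes detected on all 4 arrays. With 1 array left out, the higher count ran from 1 to 2, the lower count from 1 to 4 and the count of probe pairs from 0 to 1. The thresholds of the study were passed by 2 myelin genes under every scaling and threshold tried, and with 1 experiment left out by 2 to 3, Mbp being the third without experiment 1.

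Of 204 recomputed log2 fold changes of the 13 probes that had a test, 161 kept direction and call, 23 lost the call, 15 gained it and 5 reversed. Of 26 values from a single experiment, which have no test, 24 kept their sign and 2 turned, Mbp probe 2 (−0.084) and Omg (−0.040) without experiment 2. Among the tested values Mbp probe 2 reversed to −0.043 without CPEB2 IgG replicate 2 and to −0.81 when the 3 Mbp probes were averaged (limma adjusted p = 0.0488). Omg reversed to −0.096 with GC centring, −0.166 without CPEB2 IgG replicate 2 and −0.0015 without control IgG replicate 1. With an array or an experiment left out, Mbp probe 2 ran from −0.084 to 0.589 and Omg from −0.166 to 0.415. Median centring moved the median of all probes from −0.20 to 0.02. The cause was not tested in any of these.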
